A study of Mus musculus with 4 samples.

Results

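The collagen genes were read in brain sections of male wild-type C57BL/6J offspring at postnatal day 21, measured by Visium-FFPE. They were taken by symbol, as every feature named Col, a number, the letter a and a number, which gave 44 of the 19465 features of the probe set. Dams were fed a diet with 2 mg/kg FA (folic acid, the MF group) or 20 mg/kg FA (the HF group). The diet ran from 2 weeks before mating through pregnancy and lactation, and the offspring carried no transgene or deletion. The paper's results give dams of 8 weeks, and its methods give a range of ages that starts at 8 weeks. Each group has 2 sections of 5 µm, 1 per animal, and the litters the animals came from are not given in the sources used here. Values in each section are given below in the order MF replicate 1, MF replicate 2, HF replicate 1 and HF replicate 2. In Visium-FFPE, probe pairs bind the RNA of a fixed section and are counted in barcoded spots, each of which covers several cells. The unit is CPM, the unique molecular identifiers (UMIs) of a gene in an area per 1000000 UMIs there. Since probes differ in how well they capture, levels are compared between areas and sections for 1 gene and not between genes.

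Collagens are trimers of alpha chains wound into a triple helix, and each gene encodes 1 chain. Fibrillar chains build the fibres of connective tissue, which in the brain lies mainly in the meninges, around large vessels and in the stroma of the choroid plexus. Type IV chains form the network of basement membranes, which surround every cerebral vessel and line the brain surface. Fibril-associated chains sit on fibres or, in some neurons, at synapses, and membrane-spanning chains are held in the cell membrane and can be shed. Among the 44 genes are 11 fibrillar, 6 basement membrane, 6 beaded filament (type VI), 9 fibril-associated, 3 hexagonal network, 2 multiplexin, 4 membrane-spanning and 3 other chains.

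Of the 44 genes, 33 had at least 400 UMIs over the 4 sections and could be placed in areas. The other 11 had between 9 and 347 UMIs each and were not placed, namely Col4a3, Col4a4, Col4a6, Col6a4, Col6a5, Col6a6, Col7a1, Col9a1, Col10a1, Col17a1 and Col28a1. Sections held 34983708 to 90098381 UMIs in 3197 to 3598 kept spots, with MF replicate 1 the deepest and HF replicate 1 the shallowest. Collagen genes together had 628, 631, 720 and 565 CPM, so HF replicate 1 was the highest section and HF replicate 2 the lowest.

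The 2 HF sections did not hold the same tissue in the same proportion. All 12 meningeal markers were higher in HF replicate 1 than in HF replicate 2, with a summed level 1.65-fold as high over the whole section, as were all 11 thalamic markers (1.48-fold), while 0 of 12 striatal markers were (0.622-fold). Neuron markers, the check of the tissue, summed to 8459, 8371, 8436 and 8211 CPM, and none of the 12 was at 0. In 1 thalamic cluster, 211 of 251 spots came from HF replicate 1. Cga, the alpha subunit of pituitary glycoprotein hormones, had 129, 95.2, 112 and 0 CPM in the surface region described below, where 3 UMIs would have been 2.90 CPM in HF replicate 2. The results that rest on these 2 sections are given with and without each of them.

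**Figure D1:**
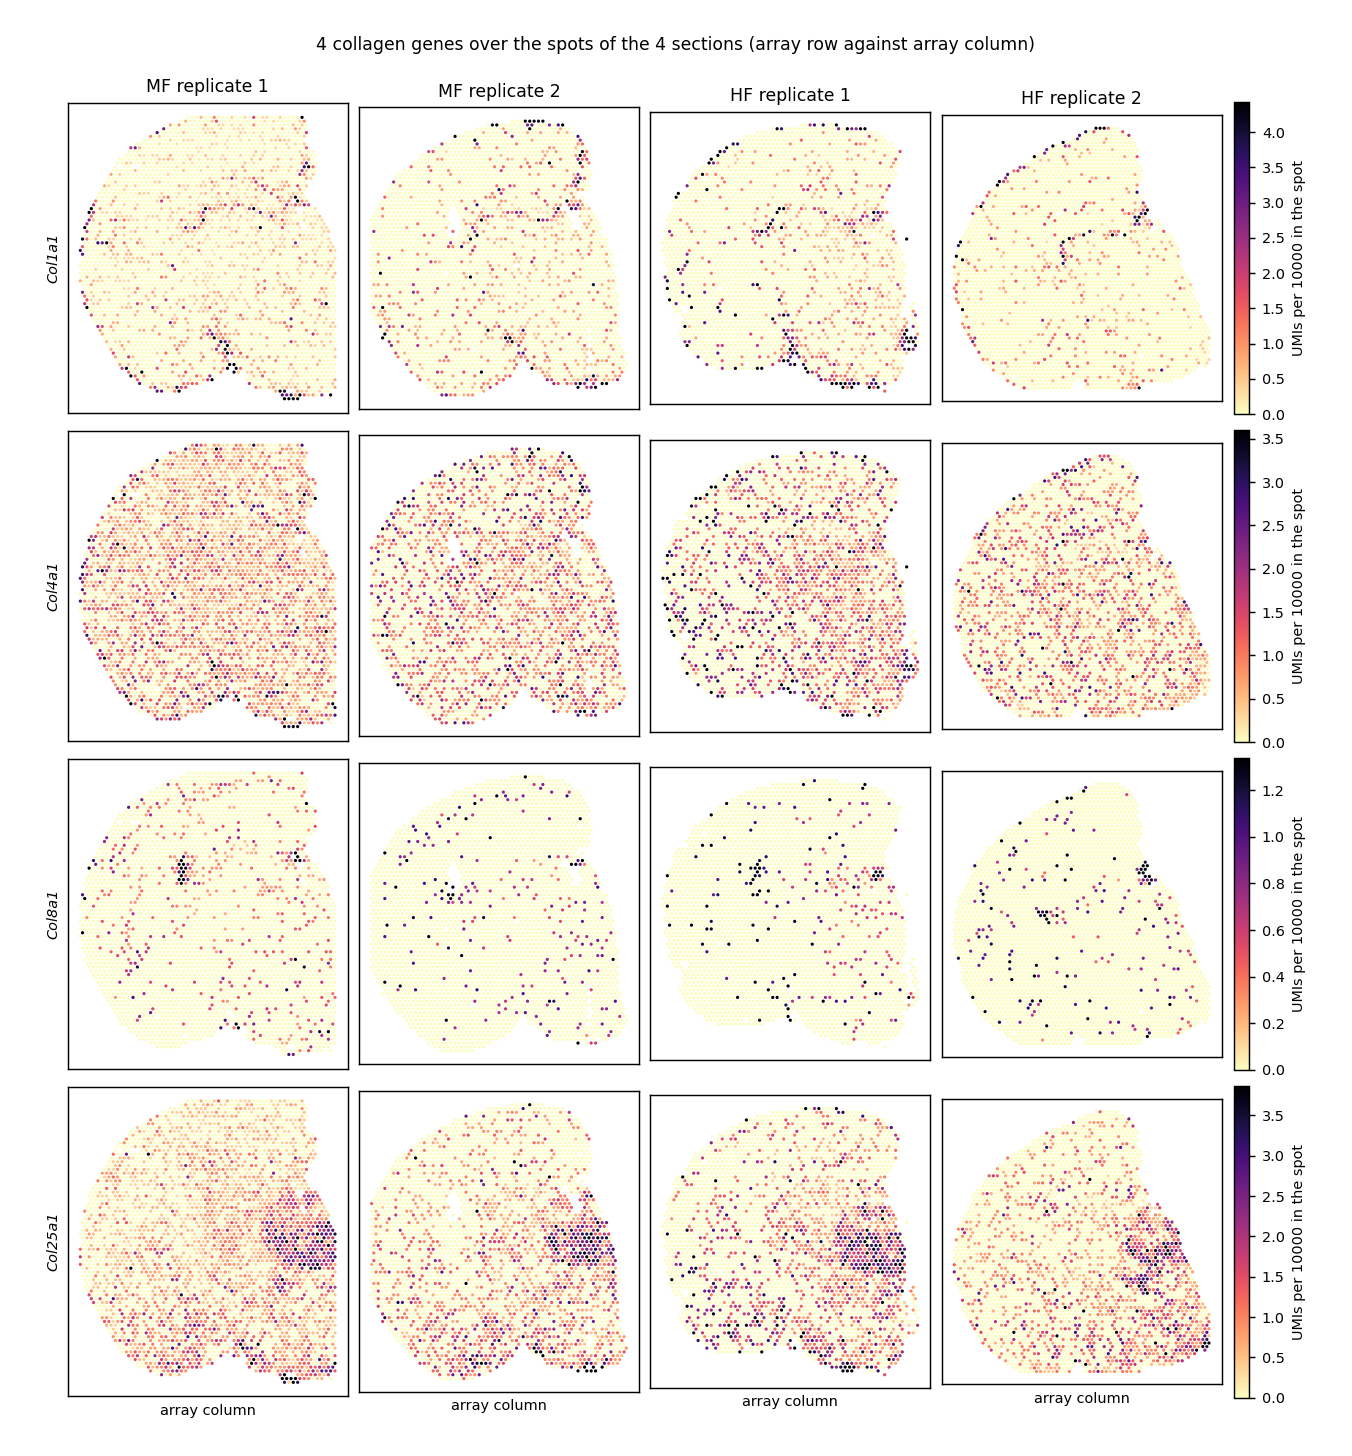
Each point is a spot placed by array row and array column in 1 of the 4 sections, and its colour is the UMIs of Col1a1, Col4a1, Col8a1 or Col25a1 per 10000 UMIs in that spot, capped at the 99th percentile. Col1a1 lies along the outer edge and a few lines inside the section, Col4a1 over the whole section and Col8a1 in small groups of spots. Col25a1 lies in a compact field of the thalamus, where 1 cluster reached 147 ± 21.3 CPM (SD, n = 4 sections). Its level was also high in the surface region described below, except in HF replicate 2.

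The maps of these 4 genes show the 3 kinds of place in which collagens were found. Moran's I, a score of how alike neighbouring spots are that Space Ranger wrote for each section, was 0.205 to 0.279 for Col25a1 and 0.101 to 0.168 for Col1a1. It was 0.0187 to 0.0459 for Col4a1, whose spots are spread over all areas, and -0.0077 to 0.0096 for Col20a1.

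Areas were drawn by clustering the spots with all collagen genes left out, and named from fixed markers, so a level in an area is a description with no test. An area named by a pair of genes could not be named from markers and is called by its leading genes. The surface region held 112, 108, 112 and 94 spots, of which 53.6% to 58.5% lay on the outermost row of the section. Its first genes were Cga, Ptgds, Cyp2f2, Eln, Acta2, Fndc3c1, Slc22a6, Ces1d, Tagln and Myh11. Meningeal markers were 9 of its 50 leading genes and 1 of the first 10. In HF replicate 2, Cyp2f2, Fndc3c1 and Ces1d were at 0 CPM there, as was Cga. Hypothalamic markers there were 2.50-fold as high in HF replicate 1 as in HF replicate 2, so the region held mixed tissue. The choroid plexus region held only 9 to 13 spots per section. A level in a spot can differ because more cells of a type are there or because each cell holds more RNA, and these cannot be told apart here.

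Of the 33 placed genes, 15 were highest in the same area in all 4 sections: 6 in the surface region, 5 in the choroid plexus region, 3 in the habenula and 1 in an area led by Cyp26b1 and Lypd1. Summed over all collagen genes, the level was 3032 CPM in the choroid plexus region and 2285 CPM in the surface region, against 429 CPM in the cortex.

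The bases before the start of both type VIII chains, which stood out most in the choroid plexus region, are shown beside those of Col3a1, the fibrillar chain that marked the surface region instead. The sequences are from RefSeq (GRCm38.p6), end at or next to the base before the first exon and hold no exon base. Capitals mark matches on either strand to a TATA box (TATAAA or TTTATA) or to a GC box (GGGCGG or CCGCCC), the only letters marked.
Col3a1, chr1:45311418-45311537, plus strand: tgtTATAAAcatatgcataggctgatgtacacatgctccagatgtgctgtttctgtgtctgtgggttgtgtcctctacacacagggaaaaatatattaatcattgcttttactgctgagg
Col8a1, chr16:57754738-57754857, minus strand: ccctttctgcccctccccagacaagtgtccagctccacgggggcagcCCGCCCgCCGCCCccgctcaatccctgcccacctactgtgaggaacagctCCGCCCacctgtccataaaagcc
Col8a2, chr4:126286673-126286792, plus strand: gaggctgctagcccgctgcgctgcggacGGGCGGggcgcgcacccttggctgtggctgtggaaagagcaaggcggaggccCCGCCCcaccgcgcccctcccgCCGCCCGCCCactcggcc
The Col3a1 stretch holds 1 match to the TATA box 117 bases before the start and no GC box match. That of Col8a1 holds 3 GC box matches and that of Col8a2 holds 4, of which the last 2 overlap. Over the 250 bases before each start, the GC box was in 22 of 38 windows of the members (57.9%) and in 32.7% of all 32851 windows. Among the members with it were also Col4a2 and Col23a1, which were highest at the surface, so the stretches shown do not set the areas apart. The TATA box was in 5 of 38 (13.2%) against 12.4%, and the CCAAT box (CCAAT or ATTGG) in 13 of 38 (34.2%) against 33.8%. A match is only a run of letters, and 35 of the 44 members have a window in the table.

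Col8a1 (GRCm38 chr16:57624258-57754737) and Col8a2 (chr4:126286793-126314330) encode the short chains of the hexagonal network known from Descemet's membrane of the cornea. In the choroid plexus region Col8a1 was at 301, 321, 279 and 286 CPM (297 ± 18.6, SD, n = 4), which is 40.9-fold the mean of the other areas. Col8a2 was at 262, 276, 276 and 339 CPM there (288 ± 34.6), or 41.1-fold. In the cortex the same genes had a mean of 5.69 and 1.62 CPM, and no section reached more than 27.3 CPM of Col8a1 or 34.5 CPM of Col8a2 in another area. Col14a1, a fibril-associated chain that regulates fibril growth, had 58.1, 41.2, 41.2 and 53.4 CPM (23.3-fold). Another fibril-associated and a fibrillar gene were highest there in all sections. Col9a3 had 800, 873, 974 and 987 CPM (10.7-fold), with a mean of 41.6 CPM in the cortex, and Col27a1 was carried by MF replicate 2, with 10.6, 41.2, 12.7 and 11.6 CPM. Since the region holds 46 spots in all, low values there rest on few UMIs.

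In the surface region, Col3a1 (chr1:45311538-45349706), the chain of type III fibres, was at 267, 199, 380 and 173 CPM (255 ± 92.7), 10.2-fold the mean of the other areas. Its neighbour Col5a2, which lies tail to tail with it 24615 bases away and controls the diameter of type I fibrils, had 52.2, 45.6, 64.4 and 36.7 CPM (6.66-fold). Col6a3, a chain of beaded filaments, had 21.5, 14.6, 30.1 and 9.66 CPM (5.76-fold). For all 3 genes HF replicate 1 was the highest section and HF replicate 2 the lowest, with both MF sections in between. The type I chains, the main fibre of dura and leptomeninges, were also high. Col1a1 (chr11:94936224-94953042) had 334, 279, 473 and 199 CPM, and in HF replicate 2 its level was slightly higher in the choroid plexus region, at 207 CPM. Col1a2 (chr6:4504814-4541544) had 465, 369, 676 and 255 CPM at the surface and 294, 469, 365 and 367 CPM in the choroid plexus region, so its order was split between these areas, 2 sections each.

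Both main basement membrane chains were found in all areas. Col4a1 (chr8:11198423-11312826) and Col4a2 (chr8:11312805-11449287) lie head to head and form the common type IV trimer. Col4a1 had 192, 172, 214 and 128 CPM in the surface region (177 ± 36.4, 2.89-fold) and a mean of 42.6 CPM in the cortex. Col4a2 had 207, 184, 225 and 161 CPM (194 ± 27.9, 2.50-fold) and 60.3 CPM in the cortex, and was highest at the surface in all 4 sections. Col4a5, a chain of the other type IV trimers, had 31.6, 28.5, 41.5 and 23.2 CPM at the surface (6.64-fold). Col18a1, which yields endostatin, and Col15a1 are the multiplexins of vascular and epithelial basement membranes. The mean of Col18a1 was 41.7 CPM in the choroid plexus region and 29.98 CPM at the surface, and that of Col15a1 33.3 CPM at the surface.

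Among the membrane-spanning chains, Col25a1 and Col23a1 were high at the surface in most sections and in other areas as well. Col25a1 (chr3:130131501-130599877), a membrane-spanning collagen first found in amyloid plaques and required for motor innervation of muscle, had 99.03, 94.0, 125 and 86.1 CPM in the thalamus and 107, 92.3, 118 and 101 CPM in the habenula. Both lay well above the cortex, where all sections were between 22.8 and 25.7 CPM, and the choroid plexus region was its lowest area with a mean of 9.77 CPM. At the surface it was at 123, 150 and 127 CPM in 3 sections, above the thalamus and the habenula of the same section. In HF replicate 2 the surface was at 38.6 CPM, below both. Within the thalamus the cluster led by Gbx2 and Snx31 had 146.5, 145.6, 174 and 121.8 CPM. Col23a1 (chr11:51289920-51583918), also membrane-spanning, was highest at the surface (87.3, 103, 67.5 and 34.8 CPM, 4.71-fold) and next in the hypothalamus (44.5, 32.4, 32.5 and 15.2 CPM). Its hypothalamic level in a cluster led by Avp, Agrp and Oxt was 154.5, 62.7, 47.1 and 11.9 CPM, so HF replicate 2 lay far below MF replicate 1 there.

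The habenula was the highest area of 3 genes in all sections. Its spots also held choroid plexus markers, at 6761, 7482, 11117 and 14305 CPM, whose part in the result was not tested, and at a clustering resolution of 0.5 no separate habenula area was formed. Col5a3, a fibrillar chain, had 12.5, 11.8, 21.1 and 12.9 CPM (7.06-fold), Col16a1, a fibril-associated chain, had 47.1, 51.3, 64.5 and 44.5 CPM (4.49-fold), and Col2a1, the fibre of cartilage, had 9.93, 16.6, 8.30 and 7.18 CPM (4.40-fold). Of these, Col16a1 varied least between sections in proportion. Col22a1 (chr15:71795795-72034227), known from the junction of muscle and tendon, was highest in the area led by Cyp26b1 and Lypd1, with 17.0, 17.8, 20.8 and 14.6 CPM (3.61-fold). Col11a2 was highest in white matter in 3 sections, with a mean of 84.3 CPM (2.40-fold), Col11a1 in the hypothalamus in 3 sections (13.6 CPM), and Col6a1 in the striatum in 2 (86.6 CPM).

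**Figure D2:**
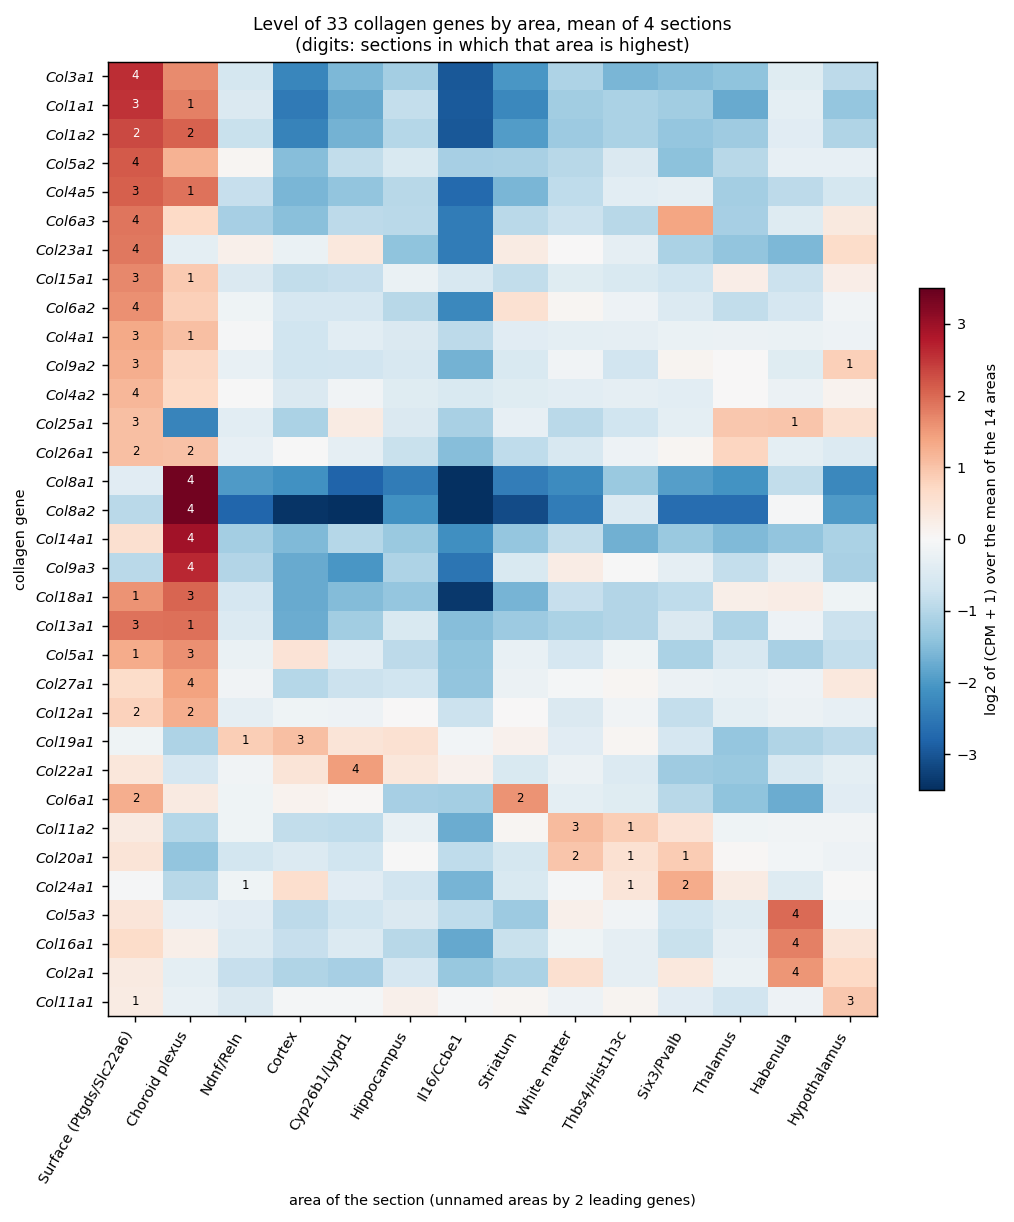
The 33 placed collagen genes (vertical) are plotted against the 14 areas of the section (horizontal), coloured by the log2 of the mean CPM + 1 of 4 sections over the mean of the 14 areas. Digits give the number of sections in which that area is the highest, and the colours show 1 block of genes high in the surface region, 1 in the choroid plexus region and single genes elsewhere.

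The cortex as a whole was the highest area of Col19a1 alone (44.4, 42.4, 45.7 and 42.9 CPM, 3 of 4 sections). Within the cortex, spots named as layer 2-3, 4, 6 or 6b were compared, and 275, 220, 205 and 278 unnamed cortical spots were left out. Among these layers Col19a1 (chr1:24261890-24587472), a fibril-associated chain needed for inhibitory nerve terminals, was highest in layer 2-3 in all 4 sections. It had 74.8, 66.8, 74.0 and 60.5 CPM there, 1.86-fold the mean of the other named layers. Other chains marked deeper layers. Col26a1 was highest in layer 4 (24.6, 17.3, 27.9 and 23.9 CPM, 3.15-fold) and Col5a1, a fibrillar chain that starts fibril assembly, in layer 6 (21.1, 26.4, 18.2 and 40.1 CPM, 2.64-fold). Col23a1 was highest in layer 6b, at 79.1, 75.5, 92.9 and 110.9 CPM (7.61-fold), as was Col6a1, at 74.9, 82.8, 87.0 and 77.3 CPM (3.11-fold). These layers were again high in all 4 sections, on 42 to 76 spots per section for layer 6b. In the hippocampus, only CA1 and the dentate gyrus could be named and compared, and 186, 185, 154 and 174 unnamed spots were left out. The dentate gyrus was higher than CA1 for Col9a3 (57.5, 43.5, 65.3 and 43.9 CPM) and for Col15a1 (11.7, 15.1, 6.08 and 8.54 CPM), on 22 to 37 spots per section.

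To read collagens beside cell type markers away from the edge, interior spots (row 4 from the edge and deeper) were ranked by the summed CPM of a marker list, and the top 10% were set against the rest. A gene was said to follow a list where its level was at least 25% higher in each of the 4 sections. By this description, 15 of the 33 genes followed the meningeal markers (background 6.96% of all features with at least 400 UMIs), 10 the endothelial markers (5.32%), 12 the mural markers (4.8%) and 3 the neuron markers (5.64%). The lists overlap in space: 27.7% to 33.6% of the spots rich in meningeal markers were also rich in mural markers, and 2.15% to 5.02% of the spots of a vascular or meningeal list were also rich in neuron markers.

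Chains of types I, III and VIII were among those with the highest ratios for the meningeal markers. Col1a1 had 97.3, 98.7, 89.9 and 58.9 CPM in the spots rich in meningeal markers and 12.8, 13.4, 16.9 and 8.02 CPM in the others, a geometric mean ratio of 6.84. Col8a2 had 24.1, 19.3, 30.6 and 25.0 CPM against 3.73, 3.62, 5.36 and 3.60 CPM (ratio 6.07). Col3a1 had 68.0, 64.2, 76.3 and 53.1 CPM against 11.4, 12.6, 14.2 and 7.52 CPM (5.82). In each section the rich spots were above the others for all 3 genes. Spots of the choroid plexus region, where Col8a1 and Col8a2 were highest, made up 1.79% to 2.77% of the spots rich in meningeal markers. Their part in the type VIII ratios was not tested. With the endothelial list the ratios were 3.81 for Col1a1, 1.66 for Col8a2 and 3.74 for Col3a1, and with the mural list 4.75, 1.55 and 4.72. The meningeal ratio was above the endothelial and the mural ratio in all sections for Col1a1, Col1a2, Col3a1 and Col8a1. The same was seen for Col8a2, Col9a3, Col12a1 and Col15a1. With the richest spots taken within each area, this order held in all sections for Col1a1, Col3a1 and Col8a1. It then held in 3 sections for Col1a2, Col8a2, Col12a1 and Col15a1, and in 2 for Col9a3. With the surface and choroid plexus regions left out, chosen after seeing the data, it held in 3 sections for Col8a2 and Col15a1. It then held in 2 sections for Col9a3, and in all sections for the others.

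Col4a1 and Col4a2 had higher ratios with the vascular lists than with the meningeal one, while Col4a5 had its highest ratio with the meningeal list in 3 of 4 sections. Col4a1 had 112.5, 121.1, 119.3 and 93.1 CPM in spots rich in mural markers, the markers of pericytes and smooth muscle cells, against 50.7, 49.8, 56.9 and 39.6 CPM elsewhere. Its ratio was 2.27 with the mural list, 2.10 with the endothelial list and 1.96 with the meningeal list, and the mural ratio was the highest in 4 of 4 sections. Col4a2 had ratios of 1.79, 1.72 and 1.503, in the same order. Col13a1, known from the neuromuscular junction, Col4a5, Col5a2 and Col18a1 followed all 3 lists.

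The 3 genes that followed the neuron markers are 9.09% of the 33, against 5.64% of all features. Col22a1 had 8.39, 11.3, 10.5 and 10.7 CPM in the spots rich in neuron markers against 4.75, 5.01, 5.05 and 4.84 CPM in the others (ratio 2.07). Col5a1 had 11.4, 12.7, 8.99 and 13.9 CPM against 6.03, 4.98, 6.46 and 8.57 CPM (1.82), and Col19a1 had 32.4, 29.3, 28.5 and 28.6 CPM against 21.3, 17.4, 19.8 and 21.5 CPM (1.49). For Col25a1 the ratio was 0.44. Of the spots rich in neuron markers, 69.9% to 80.8% lay in the cortex. When the top 10% was taken within each area, no collagen gene followed the neuron markers (0.155% of all features did), and Col22a1 had a ratio of 1.14, Col25a1 of 1.04 and Col19a1 of 0.85. The counts for the other lists were then 8 (meningeal, 1.87% of all features), 9 (endothelial, 2.89%) and 10 (mural, 2.54%). With the surface and choroid plexus regions left out, an alternative chosen after seeing the data, the counts were 12 (meningeal, 3.45% of all features), 9 (endothelial, 3.96%), 11 (mural, 3.2%) and 3 (neuron, 5.53%), and Col1a1 still had a meningeal ratio of 4.64.

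**Figure D3:**
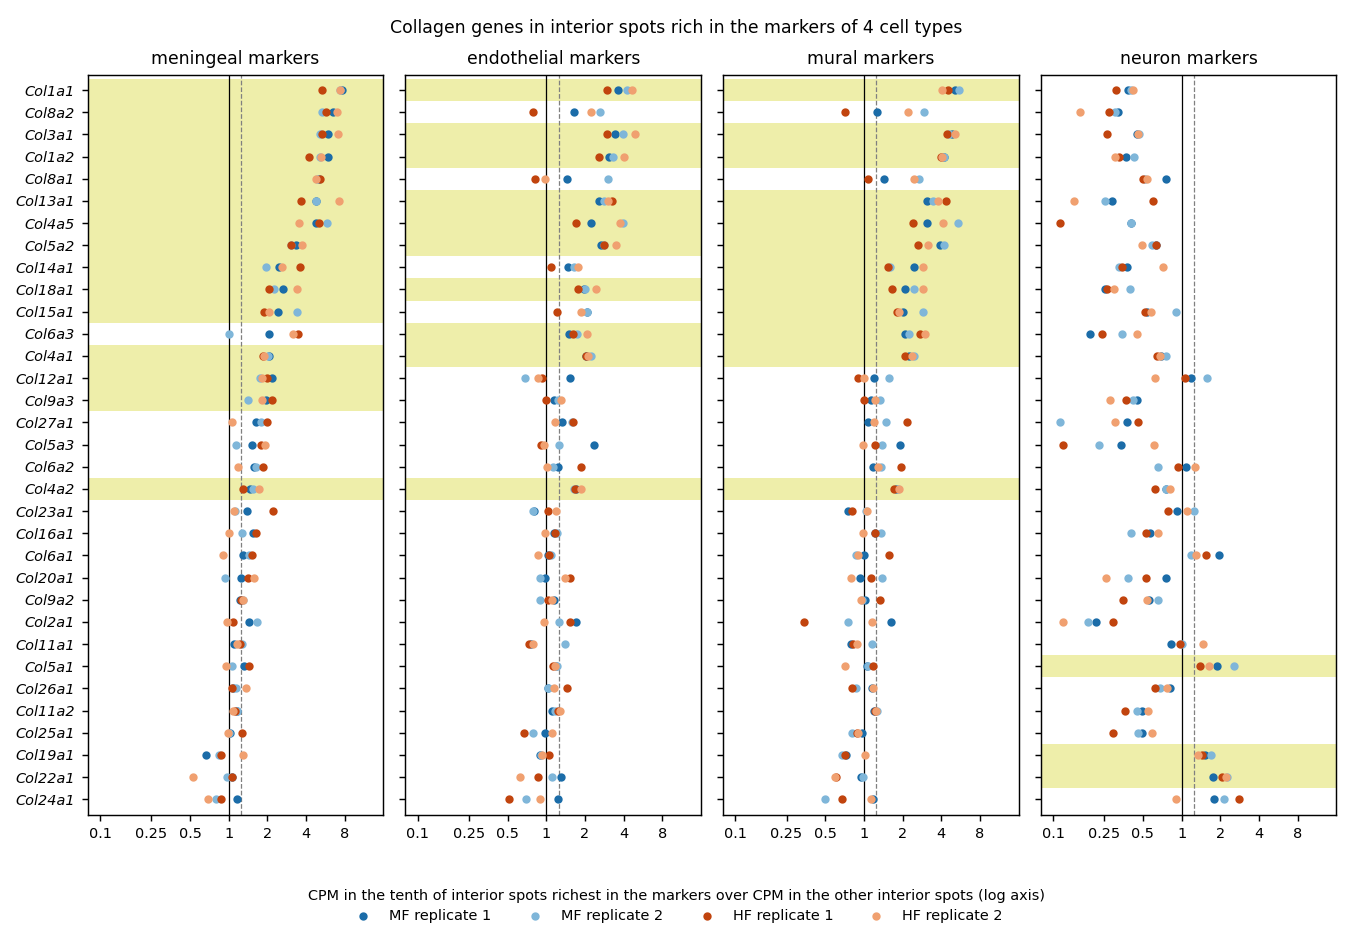
For each placed collagen gene, points give the CPM in the 10% of interior spots richest in meningeal, endothelial, mural or neuron markers over the CPM in the other interior spots, on a log axis, with 1 point per section. The dashed line marks a level 25% higher, yellow marks the genes above it in all 4 sections (15, 10, 12 and 3 by list), and 1 neuron ratio of 0 in HF replicate 2 is not drawn.

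The rim of the section, which is the outermost row of spots and is defined by position alone, gives a comparison that could be tested. Of the 44 genes, 42 passed the filter on low counts (all but Col10a1 and Col17a1), and 28 of them were higher at the rim than in the interior at an adjusted p under 0.05 and at least 1.2-fold, while none was lower. Over all 14077 features tested, 16% were called higher and 11.5% lower (27.4% in either direction), and the median log2 change was 0.87 for the collagens against -0.005 for all features. The test was the quasi-likelihood test of edgeR with section as a block. By class, 7 of 11 fibrillar, 6 of 6 basement membrane, 3 of 6 beaded filament, 5 of 9 fibril-associated, 2 of 2 hexagonal, 2 of 2 multiplexin, 3 of 3 membrane-spanning and 0 of 3 other chains were higher.

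Type I and III chains changed most. Col1a1 had 171, 96.8, 217 and 93.9 CPM at the rim and 21.1, 21.8, 23.8 and 12.8 CPM in the interior, a log2 fold change of 2.75 (SE 0.12, edgeR adjusted p = 1.1e-10). Col3a1 had 157, 77.3, 162 and 69.96 CPM against 17.0, 17.7, 20.1 and 11.8 CPM (log2 2.70, SE 0.13, edgeR adjusted p = 2.6e-10), and Col1a2 had 242, 160, 342 and 143 CPM against 38.7, 38.3, 40.9 and 24.1 CPM (log2 2.52, SE 0.11). The lowest rim section of each of these genes was above its highest interior section. The level of Col1a1 dropped within a few rows, from a mean of 144.7 CPM in row 1 to 45.1 in row 2, 33.9 in row 3 and 19.9 in row 11 and beyond.

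Type IV chains were higher by a smaller factor. Col4a1 had 116, 95.3, 140 and 71.8 CPM at the rim and 56.5, 56.4, 61.9 and 44.5 CPM in the interior (log2 0.84, SE 0.08, edgeR adjusted p = 2.8e-07), and Col4a2 130, 129, 164 and 111 CPM against 72.9, 78.0, 83.8 and 66.9 CPM (log2 0.73, SE 0.06, edgeR adjusted p = 6.9e-08). The less abundant Col4a5 rose by 2.18, Col4a4 by 1.98, Col4a6 by 1.94 and Col4a3 by 1.66 on the log2 scale. Each of these 3 pairs, Col4a1 with Col4a2, Col4a3 with Col4a4 and Col4a5 with Col4a6, lies head to head in the genome.

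The membrane-spanning genes also rose at the rim. Col23a1 had 38.7, 65.2, 39.6 and 22.1 CPM against 17.4, 15.8, 13.7 and 16.03 CPM (log2 1.26, SE 0.17), and Col25a1 81.1, 133, 113 and 74.7 CPM against 53.4, 52.7, 69.8 and 47.1 CPM (log2 0.74, SE 0.10). Among the genes not called were Col19a1 (log2 -0.08), Col22a1 (log2 -0.21), Col11a2 (log2 0.05) and Col20a1 (log2 -0.39).

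Col8a1 and Col8a2 were called higher at the rim (log2 1.46 and 1.63), with 1 section far above the others. Col8a2 had 10.2, 12.2, 18.4 and 46.0 CPM at the rim, and choroid plexus markers summed to 2096, 5386, 6395 and 30803 CPM there. With the choroid plexus region left out of the rim, an alternative chosen after seeing the data, 27 genes were called, all higher (background 15%), among them Col8a1 and Col8a2, the latter at log2 0.49. With the surface and choroid plexus regions left out, also chosen after seeing the data, Col8a2 was at log2 -0.03, and 11 of 42 genes were called, 10 of them higher (background 6.22%). Col1a1 then had a log2 fold change of 1.13, Col1a2 1.10, Col3a1 0.72, Col25a1 0.58, Col4a2 0.37 and Col4a1 0.29, while Col6a1 fell by 0.48 on the log2 scale. Col23a1 was at 0.09 and not called. With only the surface region left out, 18 genes were called (17 higher, background 7.44%). Meningeal markers had 601, 355, 675 and 398 CPM at the rim and 82.7, 74.0, 94.6 and 66.8 CPM in the interior, and their part in the result was not tested.

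The genes that make, cut, link and bind collagen were read beside the chains. Of 57 partner genes 53 were tested at the rim, and 36 were higher and 1 lower (16% and 11.5% of all features). Fmod, a proteoglycan that binds fibrils, had 97.0, 44.3, 107 and 43.2 CPM against 6.83, 5.16, 5.48 and 4.38 CPM. Lox, which crosslinks fibres, changed by log2 2.93, Pcolce, which speeds the removal of the C-propeptide, by 2.54, and Serpinh1, the collagen chaperone of the endoplasmic reticulum, by 1.14. Ppib, an isomerase that folds many secreted proteins, was at log2 0.00 (edgeR adjusted p = 0.962), and Adamts3, which removes N-propeptides, fell by 0.54.

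**Figure D4:**
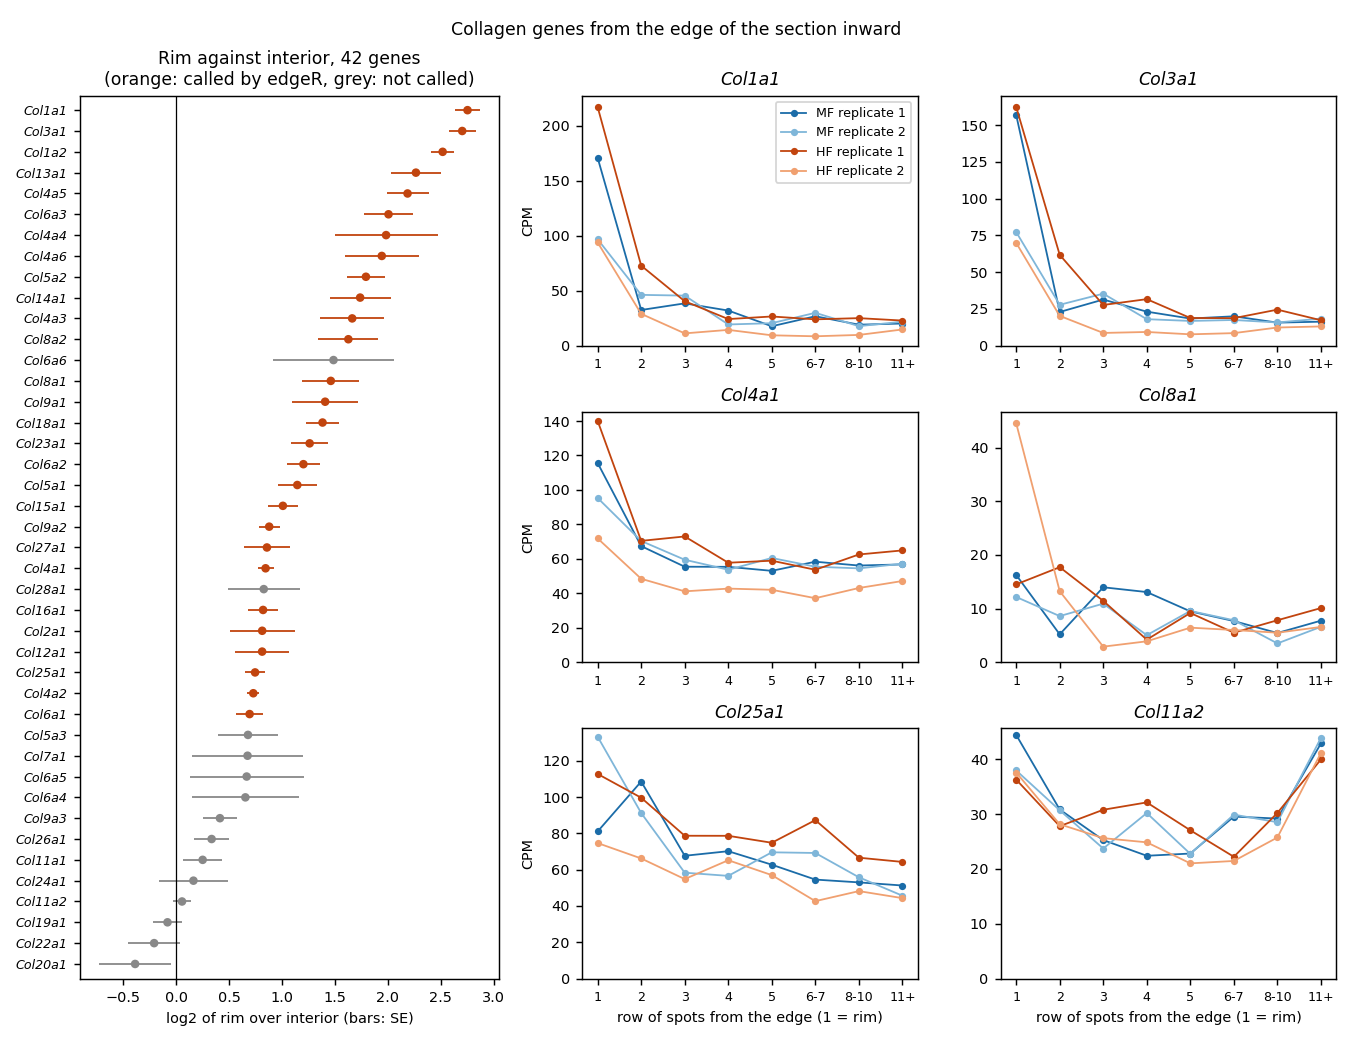
On the left, points give the log2 of rim over interior with SE for the 42 tested collagen genes, in orange where called by edgeR (28 genes). On the right, the CPM of 6 genes is plotted against the row of spots from the edge for each of the 4 sections: Col1a1 and Col3a1 drop steeply after row 1, Col4a1 less so, and Col8a1 is high at the rim of HF replicate 2, at 44.6 CPM.

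Between HF and MF, no collagen gene was called over the whole section by edgeR (0% of all features tested were called), and DESeq2 called none either. At an unadjusted p under 0.05 there were 5 of 43 genes, against 6.81% of all features, and the smallest adjusted p of a collagen gene was 0.696. With 2 sections per group, the p-values measure only the spread between these sections, and a gene that missed the threshold is not shown to be alike in the groups.

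The 4 genes with the smallest p values were Col6a5, Col8a2, Col23a1 and Col11a1. Col6a5, a beaded filament chain, had 0.377, 0.401, 0.829 and 1.04 CPM on only 34, 17, 29 and 44 UMIs (log2 1.26, SE 0.27, edgeR adjusted p = 0.696). Col8a2 had 6.22, 5.85, 8.60 and 7.81 CPM (log2 0.43, SE 0.12), Col23a1 19.4, 19.6, 16.6 and 15.9 CPM (log2 -0.27, SE 0.09) and Col11a1 5.80, 6.74, 7.89 and 7.95 CPM (log2 0.33, SE 0.13). For each of these the groups did not overlap. Among the 33 placed genes, both HF sections were higher for 7 (background 22.2%) and lower for 3 (background 17%). Choroid plexus markers, beside which Col8a2 is read, had 2476, 2330, 3466 and 3831 CPM, with 9 of 11 genes higher in both HF sections and none at 0, and their part in the result was not tested.

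For many collagen genes the HF sections lay on either side of the MF sections. Of the 33 placed genes, 15 had HF replicate 1 as the highest and HF replicate 2 as the lowest section, against 17.1% of all features, and none had the reverse. Col1a1 had 27.3, 28.3, 37.7 and 17.6 CPM (log2 -0.02, SE 0.31), Col1a2 47.2, 47.5, 63.4 and 31.3 CPM (log2 -0.02, SE 0.29) and Col3a1 22.5, 22.3, 30.4 and 15.0 CPM (log2 -0.00, SE 0.29). The MF sections were close together and the HF sections far apart. The same order was seen for Col4a1 (58.9, 59.3, 67.1 and 45.9 CPM, log2 -0.08, SE 0.16), Col4a2 (76.1, 81.9, 89.4 and 69.4 CPM, log2 -0.00, SE 0.12) and Col25a1 (57.2, 59.2, 74.3 and 50.1 CPM, log2 0.08, SE 0.17). Meningeal markers had 103, 95.1, 140 and 84.7 CPM over the whole section and endothelial markers 704, 742, 816 and 695 CPM, with HF replicate 1 the highest and HF replicate 2 the lowest for both lists, and their part in the result was not tested.

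The sign of this comparison rested on single HF sections. Without HF replicate 1, 7 genes were called (7.68% of all features were called), of which Col1a1 fell by 0.65 on the log2 scale (edgeR adjusted p = 5.3e-04), Col1a2 by 0.59, Col3a1 by 0.58, Col4a1 by 0.36 and Col4a5 by 0.78, and Col6a5 and Col5a1 rose. Without HF replicate 2, 5 genes were called, all higher (5.55% of all features), with Col1a1 at log2 0.42, Col1a2 at 0.40, Col3a1 at 0.42, Col25a1 at 0.33 and Col8a2 at 0.48. In both fits the lone HF section is assumed to vary like the MF pair. Without MF replicate 1 or MF replicate 2, 0 collagen genes were called (0% and 0.0066% of all features). More than 1.5-fold between HF replicate 1 and HF replicate 2 were 7 of the 33 genes (2.5% of all features, and 3.46% in either direction), and 0 of 33 between the MF sections (0.333%).

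**Figure D5:**
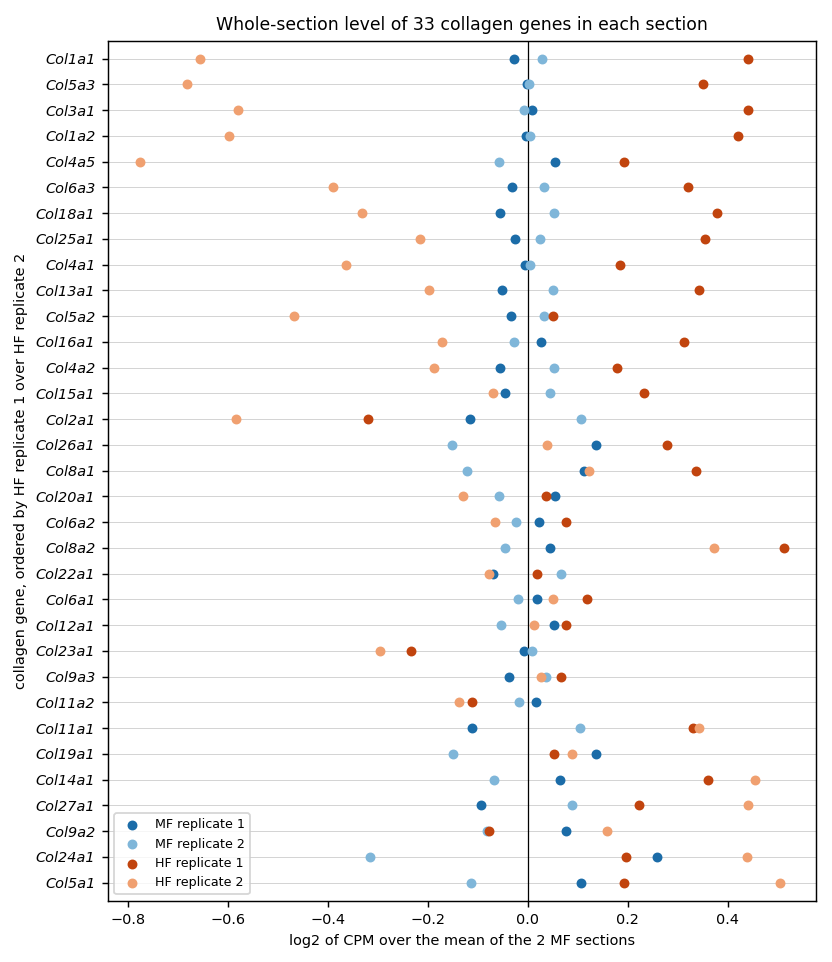
For each of the 33 placed collagen genes, the whole-section CPM of the 4 sections is shown as the log2 over the mean of the 2 MF sections, with genes ordered by HF replicate 1 over HF replicate 2. The MF points stay near 0, while HF replicate 1 and HF replicate 2 lie on opposite sides for the genes at the top, such as Col1a1 at 37.7 and 17.6 CPM.

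By area, too, 0 collagen genes were called by edgeR in the rim (0.0163% of all features), the interior (0%), the surface region (0%), the cortex (0.159%), the hippocampus (0.253%), the thalamus (0%), the hypothalamus (0%), the striatum (0.0519%), white matter (0.00817%), the choroid plexus region (0.157%) and the habenula (0.0529%). DESeq2 called 0 collagen genes in each of them as well. Terms for rim by diet (0% of all features) and area by diet (0.022%) had no collagen call either. At an unadjusted edgeR p under 0.05 there were 5 of 42 genes for rim by diet (3.85% of all features) and 3 of 36 for area by diet (6.98%). None of these passed the adjusted threshold.

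The count of collagen genes at an unadjusted p under 0.05 was 6 of 28 at the rim (4.73% of all features), 3 of 43 in the interior (6.19%), 1 of 30 in the surface region (3.5%), 5 of 32 in the cortex (8.18%), 4 of 26 in the hippocampus (9.23%) and 2 of 36 in the thalamus (7.22%). In the hypothalamus it was 5 of 36 (7.07%), in the striatum 3 of 22 (6.95%), in white matter 3 of 29 (5.5%), in the choroid plexus region 1 of 18 (8.91%) and in the habenula 3 of 20 (5.38%). Among these were both type I chains in the striatum (Col1a1 log2 -0.69, Col1a2 log2 -0.60), Col1a2 (log2 -0.43) and Col4a1 (log2 -0.29) in the cortex, and Col8a2 (log2 0.77) and Col23a1 (log2 -0.72) in the hypothalamus. None of them passed the adjusted threshold.

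Among these areas some genes had groups that did not overlap, and the share of all features that did so was not counted by area. In the surface region Col23a1 had 87.3, 103, 67.5 and 34.8 CPM, as printed above, a log2 fold change of -0.89 between HF and MF (edgeR adjusted p = 0.994). The calls in this region rested on single HF sections as well: without HF replicate 1, Col1a1, Col1a2, Col6a2, Col23a1 and Col25a1 were called lower (3.62% of all features), and without HF replicate 2, Col1a1, Col1a2, Col3a1 and Col6a2 were called higher (0.871%), while without MF replicate 1 or MF replicate 2 there were 0 calls (0.0518% and 0.0521%). In the hippocampus Col1a1 had 36.8, 36.7, 35.0 and 13.7 CPM (log2 -0.65, edgeR adjusted p = 0.449), where the MF sections and HF replicate 1 lay close together and HF replicate 2 was low. Mural markers in the hippocampus were at 179, 182, 138 and 140 CPM, with 8 of 13 lower in both HF sections, and their part in the result was not tested. In the habenula Col8a1 had 8.65, 6.31, 17.2 and 27.3 CPM (log2 1.37, edgeR adjusted p = 0.442), beside the choroid plexus markers given above for this area, of which 9 of 11 were higher in both HF sections. Their part in the result was not tested.

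At the rim, Col8a2 (log2 1.59, edgeR adjusted p = 0.371) had the smallest p of the collagens, beside the choroid plexus markers given above, with HF replicate 2 far above the rest. With the replicate number as a block, Col8a2 and Col9a3 were called there (2 genes, against 0 without the block), while 0.466% of all features were, against 0.0163% without the block. With no filter on low counts these 2 and Col8a1 were called (3 genes, 0.575% of all features).

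None of the partner genes was called between HF and MF by edgeR, and 5 of 54 had an unadjusted p under 0.05 over the whole section (6.81% of all features). Over the whole section, those with the smallest p that were lower were Adamts2, which removes the N-propeptides of fibrillar chains (22.1, 22.5, 19.6 and 18.1 CPM, log2 -0.25), and Pcolce2 (20.9, 18.9, 15.6 and 16.9 CPM, log2 -0.30). Those that were higher were P4ha1, a prolyl hydroxylase that stabilises the helix (45.7, 48.1, 53.6 and 53.2 CPM, log2 0.18), and Pcolce (16.6, 15.3, 23.2 and 16.1 CPM, log2 0.29). The groups did not overlap for Adamts2, Pcolce2 and P4ha1, and overlapped for Pcolce. These genes were taken by their small p. Over all features with at least 400 UMIs, both HF sections were higher for 22.2% and lower for 17%.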

How the data were processed

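The authors aligned the probe reads of 4 Visium-FFPE sections to mm10 (GRCm38) with Space Ranger and deposited raw UMI counts per feature and spot, with spot positions on the array and a score per feature of how alike neighbouring spots are (Moran's I). Only spots under tissue were used. The minimum was 500 UMIs and 250 genes per spot, the paper's limits, which left 3197 to 3598 spots per section (18 removed). The collagen genes were taken by symbol, and their positions are from GENCODE vM21 by Ensembl identifier (44 of 44 matched). The members, marker lists, partner list and tests were chosen with earlier results of these data known.

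Areas came from 2000 variable genes without collagens, scaled within each section, 30 principal components, 20 neighbours and the Leiden method with its resolution set to 1 (Python 3.11.15, numpy 2.4.6, scipy 1.17.1, pandas 2.3.3, scikit-learn 1.9.0, igraph 0.11.9, leidenalg 0.10.2). The paper used Harmony and histology, which were not used here, so areas may differ from its regions. Counts were summed per section and area and scaled to CPM, since spots of 1 section are not replicates. Sums were compared in R 4.3.3 by edgeR 4.0.16 (limma 3.58.1), with its quasi-likelihood test after TMM and filterByExpr, with Benjamini-Hochberg adjustment over all features and calls at an adjusted p under 0.05 and at least 1.2-fold. The rim and area terms used section as a block, and the diet comparison had none. The test was checked on simulated counts in which 200 features were changed. Between HF and MF, 1.5-fold changes were recovered for 61% of them over the whole section and 48.5% in the hippocampus. At the rim it was 19% and in the surface region 5.5%. For 2-fold changes the shares were 89%, 84.5%, 73.5% and 62.5% in the same order. Changed features were taken only from those above a minimum expected count, and each feature was given the spread typical of its level. Col1a1, Col1a2 and Col3a1 differed far more between the HF sections than most features. The shares therefore do not give the recovery for these genes. Alternatives were DESeq2 1.42.0, library size alone, no filter, replicate blocks, thinned sums, the spot-level test of the paper, other areas, other rims and each section left out in turn.

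Genes named with values in every section are the 4 with the smallest p for the whole section, the 3 most specific to each area, the main chains of types I, III and IV, Col23a1 and Col25a1. Other collagen genes were named after their values were seen. Figures were drawn with matplotlib 3.10.9.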

Additional observations from a re-analysis of the deposited data

How the results depend on the processing

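With 2 sections per diet, leaving out single sections moved the number of collagen genes called between HF and MF: 0 to 7 over the whole section, 1 to 4 at the rim, 0 to 9 in the interior, 0 to 5 in the surface region, 0 to 5 in the cortex, 0 to 4 in the hippocampus, 0 to 2 in the thalamus, 0 to 4 in the hypothalamus, 0 to 1 in white matter, 0 to 3 for the rim by diet term and 0 to 1 for area by diet. In all these places calls came without HF replicate 1 or HF replicate 2, and at the rim also without MF replicate 1 (Col8a2 and Col23a1) or MF replicate 2 (Col8a2 and Col9a3). The lone section is then assumed to vary like the pair. For fits with a section left out, the share of all features called is given above for the whole section and the surface region only. The counts alone therefore cannot show whether a change was particular to collagens. The log2 changes ranged from -0.65 to 0.42 for Col1a1, -0.59 to 0.40 for Col1a2, -0.58 to 0.42 for Col3a1, -0.36 to 0.16 for Col4a1, -0.18 to 0.16 for Col4a2 and -0.21 to 0.33 for Col25a1. Those near 0 also changed sign for Col1a1 with thinned sums (0.0031) and single spots (0.0025), for Col3a1 with DESeq2 (0.0040), library size alone (0.012) and single spots (0.018), for Col4a2 with library size alone (0.0067) and for Col25a1 with single spots (-0.015). The cause was not tested. A rank-sum test over single spots called 1 collagen gene in the whole section (of 561 features called), 4 in the interior (of 592), 6 in the cortex (of 962), 2 in the hippocampus (of 334) and 1 each in the hypothalamus (of 569), striatum (of 380) and white matter (of 385). All collagen genes called by this test were lower in HF. It ran over 19465 features and treats the spots of 1 section as replicates, and the direction of the other features called was not counted. With no filter there were 3 collagen calls at the rim (95 of 16517 features tested were called), 1 in the hippocampus (146 of 16496) and 2 for area by diet (268 of 18790).

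Same-numbered sections did not deviate together (r = -0.165 for the whole section), so the replicate number is not a pairing. With it as a block, 2 collagen genes were called at the rim (of 57 features), and 0 features over the whole section. Crossing the numbers, chosen after seeing the data, gave 1 collagen call each in the hippocampus (79 of 12246 features tested were called) and habenula (34 of 11339).

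The 28 genes called between rim and interior were 27 to 28 with 1 section left out, 18 without the surface region, 27 without the choroid plexus region and 11 without the surface and choroid plexus regions, where Col8a2 was at -0.027. Without the surface region, 1 gene (Col1a2) was called for rim by diet (2 of 14547 features tested were called). At a clustering resolution of 0.5 the habenula was not separate, and Col2a1, Col5a3, Col22a1, Col23a1 and Col27a1 were no longer highest in 1 area in all sections. For marker-rich spots, the meningeal count was 8 within areas, the endothelial count 16 over all spots, and the neuron count 1 with the top 5% and 0 within areas. All other counts (154 settings) stayed within 1.5 times of those reported. Depth limits the 11 genes with under 400 UMIs and the 46 spots of the choroid plexus region.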
